A study of Oryza sativa Indica Group with 6 samples.

Results

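IR24, an indica rice susceptible to submergence, was compared with itself after 24 h and after 15 min under water. The members were set by label, with earlier results of these data known. They are the IR24 channel of each array, which is Cy3 on replicate 1 arrays and Cy5 on replicate 2 arrays. This gives 4 of the 12 channels of the study, 2 from plants submerged for 24 h and 2 from plants submerged for 15 min. The tolerant genotype FR13A filled the other channel of every array. Plants of the 24 h group were sampled 15 days after sowing. The 15 min plants and the untreated plants, called constitutive, were sampled at 14 days. All samples were leaves of plants grown in a growth chamber, and the submerged plants stood under water in clear polythene bags. No group was handled without submergence and none was left unsubmerged until day 15, so handling, 1 day of growth and submergence cannot be told apart in the 24 h values.

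Under water, gas diffuses slowly, so leaves lose oxygen and carbon dioxide supply while ethylene builds up. Plants answer a sudden disturbance with a fast burst of calcium, kinase and transcription factor signalling, and later rearrange carbon use, growth and defence. DREB and CBF factors bind the dehydration response element of stress genes, and heat shock proteins keep other proteins folded. Starch and sucrose breakdown feeds glycolysis, and alcohol and lactate fermentation regenerate the cofactor that glycolysis needs.

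Levels are normalised log2 intensities of a probe, and a difference of 1 is a 2-fold change. A call is a limma adjusted p under 0.05 (Benjamini-Hochberg over all 18907 probes fitted). Errors are the standard error (SE) of the fit, with n = 2 channels per time. The fit takes 1 spread per probe from all 12 channels, FR13A and constitutive included, and draws partly on other probes. The SE is therefore not the spread of the 4 IR24 channels alone. Nothing in the labels says whether the replicates came from separate plants, so p-values measure only the spread between these samples. Gene names are those of the array descriptions, and "like" marks a description taken from another species. The number of arrays limits the precision.

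Between 87.3% and 95.3% of gene probes were well above background in an IR24 channel. The 24 h replicates correlated at 0.99 over probes and the 15 min replicates at 0.974, and 24 h against 15 min channels at 0.936 to 0.951. These correlations are across probes, which are not independent. Median signal over background was 11.4 in the second 24 h channel and 3.52 to 5.3 in the other IR24 channels, and the part of this in the results was not tested. Of 43 leaf photosynthesis probes, 43 were well above background in both 24 h channels and 42 in both 15 min channels. None of them (0) was called between the times, which does not show that they stayed level. Their summed log2 level was 19.25 to 20.29 at 24 h and 19.77 to 20.13 at 15 min. Of markers of other tissues, 8 of 9 seed storage probes were well above background in both channels of each time. Of 20 root or pollen probes, 16 were so at 24 h and 14 at 15 min, so detection alone does not single out leaf. Of these markers, 1 of 9 seed storage and 1 of 20 root or pollen probes were called. The summed log2 level of the root or pollen probes was 13.26 to 13.66 at 24 h and 12.89 to 13.39 at 15 min, and its part in the results was not tested. Replicate 1 of both times was scanned on 1 day and replicate 2 of both times on another, each with IR24 in 1 dye, so within a replicate number both times share scan day and dye. The first constitutive array shared the scan day of the replicate 2 arrays, and the second was scanned on a day of its own. Scan day is therefore not balanced in comparisons with constitutive plants.

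At 24 h, 1874 probes differed from 15 min, which is 9.91% of those fitted. Of these, 663 (3.51%) were higher and 1211 (6.41%) were lower at 24 h. Called probes had a median size of 1.05 on the log2 scale, and 1003 changed at least 2-fold, 301 higher and 702 lower. The count was 714 without the first 24 h array and 709 without the second. In all 1874 the 24 h and 15 min channels did not overlap. The same held for 10295 (54.5%) of all probes fitted, so non-overlap of a called probe adds nothing to its call. The largest fall, of -5.18, was in a probe (AK106404) described only by an Arabidopsis locus number. At 15 min against constitutive plants, 396 probes (2.09%) were called, 366 higher (1.94%) and 30 lower (0.159%), a total that was 102 and 122 without a constitutive array, 196 without the first 15 min array and 203 and 222 without a 24 h array. At 24 h against constitutive plants, 1685 probes (8.91%) were called, 840 higher (4.44%) and 845 lower (4.47%), a total that was 583 and 703 without a 24 h array and 753 and 895 without a constitutive array. With scan day as a block, 193 probes were called at 15 min against constitutive and 1400 at 24 h against constitutive. These comparisons share channels, so each one's values are given side by side and no agreement between them is read as a result.

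The early changes mostly faded. Of the 396 early probes, 272 (68.7%, and 1.44% of all fitted) were called again in the opposite direction between 15 min and 24 h, and 264 of them had been higher at 15 min. The 15 min channels enter both calls, which by itself favours opposite signs. The 272 faded probes had a median difference of -1.53 at 24 h against 15 min, of 1.58 at 15 min against constitutive and of 0.00 at 24 h against constitutive. The count of faded probes was 87 to 350 when 1 array was left out, with the lowest values, 87 and 89, without a constitutive array. It was 141 with scan day as a block. At 24 h, 199 of the 272 lay within 0.5 of the constitutive mean, as did 15284 of all 18907 probes fitted. That count therefore does not set the faded probes apart. A further 66 early probes (0.349% of all fitted) were still called at 24 h against constitutive and had no call between the times, and 13 (0.0688%) had moved further the same way. The remaining 45 met none of these rules. Late probes, with an early difference under 0.5 and calls at 24 h against both earlier groups, numbered 947 (5.01% of all fitted), of which 428 were higher with a median of 1.0 and 519 lower with a median of -1.11. The late count was 334 and 382 without a 24 h array, 457 and 492 without a constitutive array and 591 without the second 15 min array. The other 642 probes called at 24 h against 15 min fitted no class.

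**Figure D1:**
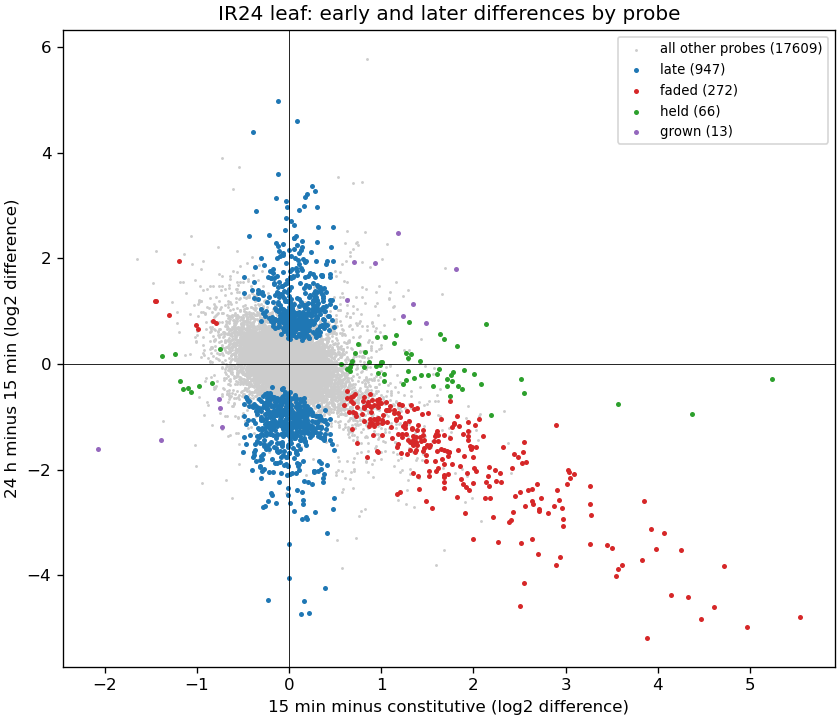
Each point is a probe in IR24, with the log2 difference at 15 min minus constitutive on the x axis and at 24 h minus 15 min on the y axis, coloured by class. Both axes use the 15 min channels; the 272 faded probes lie mainly at lower right, and the 947 late probes lie above and below 0 on the y axis near 0 on the x axis.

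Transcription factors of the DREB and CBF type were among the described probes that fell furthest by 24 h. A barley CBF1-like probe (AK106041) had 6.54 and 6.08 at 24 h, 11.73 and 10.53 at 15 min and 6.72 and 6.61 in constitutive plants. The 15 min channels stood above all others and the 24 h channels reached the constitutive ones. It fell by 4.82 ± 0.40 between 15 min and 24 h (limma adjusted p = 0.00013). Rice DRE-binding protein 1B (AK062422) had 9.63 and 7.29 at 24 h, 13.52 and 12.98 at 15 min and 7.70 and 7.72 in constitutive plants. Its 24 h channels differed by more than the constitutive ones but stayed below both 15 min channels (difference -4.79 ± 0.60, limma adjusted p = 0.00116). DRE-binding protein 1A (AK105599) differed by -3.83 (limma adjusted p = 0.000937). The list of ERF, AP2 and DREB factors does not hold the 1A and 1B probes, whose descriptions its pattern missed. Of its 27 fitted probes, 4 (14.8%) were lower and 3 (11.1%) higher at 24 h, against 6.41% and 3.51% over all probes fitted. All 4 lower ones were faded. The median of the list was -0.06 (all probes fitted, -0.01). One of the 3 that rose was a potato cip353-like AP2/ERF-domain probe (AK106057), by 3.45 (limma adjusted p = 6.31e-05).

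Part of the heat shock list had also faded. Of 75 fitted heat shock probes, 16 (21.3%) were lower and 1 (1.33%) higher at 24 h than at 15 min. Over all probes fitted, 6.41% were lower and 3.51% higher. Of the 16, 13 were faded, a class that held 1.44% of all probes fitted. The median difference of the list was -0.16. A maize 18 kDa heat shock protein-like probe (AK071240), from a family of small chaperones, had 6.50 and 6.38 at 24 h, 10.25 and 10.66 at 15 min and 7.07 and 6.74 in constitutive plants. It fell by 4.02 ± 0.27 (limma adjusted p = 4.82e-05). Rice HSP101 (AK105433), a chaperone that pulls apart aggregated proteins, had 6.41 and 5.76 at 24 h, 9.56 and 9.24 at 15 min and 6.93 and 6.60 in constitutive plants (difference 24 h minus 15 min -3.31 ± 0.23, limma adjusted p = 5.63e-05). An Arabidopsis heat shock factor 7-like probe (AK101700), a transcription factor of these genes, fell by 3.48 (limma adjusted p = 4.82e-05). A probe described as a putative heat shock protein (AK066844) went past its starting point: its difference was -4.58 at 24 h against 15 min and -2.07 at 24 h against constitutive (limma adjusted p = 0.00246).

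Of 69 calcium signalling probes, 11 (15.9%) were lower and 0 higher at 24 h, against 6.41% lower and 3.51% higher over all probes, and 6 were faded, with a strawberry calcium-dependent protein kinase-like probe (AK068315) at -1.50 and rice CDPK1 (AK060738) at -1.24. NAC factors had 10 lower (31.2%) and 1 higher of 32, with 5 faded and a median of -0.41. The tobacco NAC-domain-like probe (AK071274) fell by 2.96 ± 0.23 (limma adjusted p = 9.27e-05), and OsNAC4 (AK105493) by 1.66, a call lost without the second 24 h array. WRKY factors had 3 lower (12.5%) and 2 higher (8.33%) of 24. Jasmonate and lipoxygenase genes, which make a wound hormone, had 6 lower (31.6%) and 0 higher of 19, with a median of -0.47. Of 83 cell wall loosening probes, 4 (4.82%) were lower and 2 (2.41%) higher, both shares below those over all probes. A rice xyloglucan endotransglycosylase (AK070734), which reshapes wall polymers, fell by 4.37 (limma adjusted p = 0.000155). The expansins Os-EXP2 (AK070463) and Os-EXP4 (AK058811), which loosen walls, had been lower at 15 min and were higher at 24 h.

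A tobacco phi-1-like probe (AK063605) had 10.14 and 10.03 at 24 h, 14.29 and 13.49 at 15 min and 10.06 and 10.50 in constitutive plants, a fall of 3.81 (limma adjusted p = 5.66e-05), and was among the faded probes. A faded protein phosphatase 2C-like probe (AK069274), from a family that removes phosphate in abscisic acid signalling, had 6.54 and 6.73 at 24 h, 11.47 and 10.10 at 15 min and 8.31 and 8.17 in constitutive plants. Its 24 h channels lay below the constitutive ones (24 h minus constitutive -1.60, limma adjusted p = 0.0331). A faded cytochrome P450-like probe (AK067007) had 11.27 and 10.21 at 24 h, 14.62 and 13.89 at 15 min and 10.28 and 9.73 in constitutive plants, and fell by 3.51. Glutamate decarboxylase, which makes GABA, had 1 probe that faded (AK071556, -2.08) and 1 that was late (AK061977, -1.99). MAP kinase 1 (AK067339) had a difference of -1.04 at 24 h against 15 min but was still above constitutive plants by 1.01 (limma adjusted p = 0.0409). Its call at 24 h against 15 min was lost without either 24 h array, without the first 15 min array, without either constitutive array, with dye as a covariate and with marked spots kept.

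The expansins are among the 8 probes that had faded after an early fall. Os-EXP2 had 10.08 and 10.47 at 24 h, 8.84 and 9.31 at 15 min and 10.36 and 10.69 in constitutive plants. The 15 min channels were the lowest (difference 1.19 ± 0.20, limma adjusted p = 0.00564). Os-EXP4 had the same difference, of 1.19 ± 0.21 (limma adjusted p = 0.00723). Its call was lost without either 24 h array and without the first 15 min array, and that of Os-EXP2 without the second 24 h array.

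**Figure D2:**
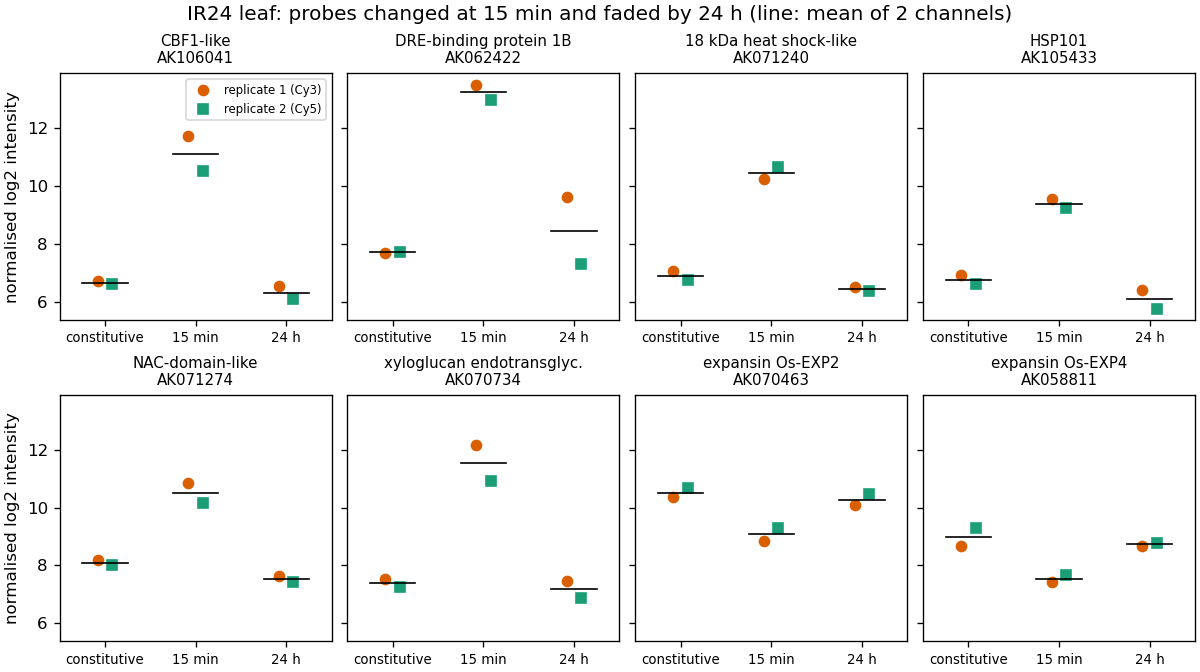
Normalised log2 intensity of 8 faded probes in each IR24 channel of constitutive plants and of plants submerged for 15 min and 24 h, with circles for replicate 1, squares for replicate 2 and a line at the mean. The CBF1-like probe stands at 11.73 and 10.53 at 15 min, above its channels at the other times, while Os-EXP2 and Os-EXP4 are lowest at 15 min.

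Genes higher at 24 h included several of carbon and amino acid use. Isocitrate lyase (AK063353), an enzyme of the glyoxylate cycle that lets cells build sugar from fatty acids, had 13.18 and 12.59 at 24 h, 7.49 and 6.72 at 15 min and 6.23 and 6.29 in constitutive plants. Both 24 h channels lay far above the others, and the difference of 5.78 ± 0.52 was the largest rise (limma adjusted p = 0.000192). Its early difference of 0.85 (adjusted p = 0.706) was over the limit of 0.5, so it is in no class. Cytosolic pyruvate orthophosphate dikinase (AK065739), which links pyruvate to sugar synthesis, rose by 3.37, and a maize sucrose synthase 3-like probe (AK099406), which splits sucrose, by 2.59 ± 0.29 (limma adjusted p = 0.000599). In the glycolysis and sucrose list of 59, however, 12 (20.3%) were lower, 7 of them late, and 3 (5.08%) higher, all late. Over all probes fitted, 6.41% were lower and 3.51% higher. An invertase (AK061240), which also splits sucrose, had faded: it fell by 2.27 (limma adjusted p = 0.0012). A branched-chain amino acid transaminase 5-like probe (AK105963) rose by 3.42. Of 14 branched-chain amino acid breakdown probes, 4 (28.6%) were higher and 1 (7.14%) lower, with a median of 0.38. In this list, the call of the isovaleryl-CoA dehydrogenase-like probe (AK066314) was lost with dye as a covariate and without either 24 h array. The 1 lower call, a branched-chain aminotransferase-like probe (AK067076, -1.54), was lost under median centring and without either 24 h array. Its spot was saturated in 1 of the 2 channels at 15 min.

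An Arabidopsis receptor kinase-like probe (AK068816) had 11.56 and 11.98 at 24 h, 6.72 and 6.84 at 15 min and 6.95 and 6.85 in constitutive plants. It rose by 4.99 ± 0.18 (limma adjusted p = 4.7e-06). A probe like the belladonna SAMT1 enzyme (AK068035), which methylates salicylic acid, had 13.12 and 13.20 at 24 h against 8.65 and 8.47 at 15 min (difference 4.60 ± 0.24, limma adjusted p = 1.25e-05). Pathogenesis-related protein 1 (AK060057) was at least 7.78-fold higher at 24 h, since neither 15 min channel was well above background (limma adjusted p = 1.21e-05). A maize pox1 peroxidase-like probe (AK058883) rose by 4.40 and a rice beta-1,3-glucanase (AK068247) by 3.16. Of 103 peroxidase and antioxidant probes, 8 (7.77%) were higher and 8 (7.77%) lower, the latter near the share over all probes. Of 98 defence protein probes, 8 (8.16%) were higher and 15 (15.3%) lower, with the largest of these falls at -3.8. Of 243 receptor-like kinases, 13 (5.35%) were higher and 15 (6.17%) lower, and in the NBS-LRR list 4 of 94 (4.26%) rose and 0 fell. The receptor kinase shares and the NBS-LRR share higher are near the 3.51% higher and 6.41% lower over all probes.

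A barley lipoxygenase 2-like probe (AK071915), which starts jasmonate synthesis and was late, had 5.92 and 5.70 at 24 h, 10.12 and 9.97 at 15 min and 9.89 and 9.41 in constitutive plants. It was at least 18.2-fold lower at 24 h, since neither 24 h channel was well above background (limma adjusted p = 1.25e-05). A wheat WCOR518-like cold acclimation probe (AK062295) had 10.64 and 11.05 at 24 h against 15.26 and 15.36 at 15 min (difference -4.46 ± 0.26, limma adjusted p = 3.25e-05). The spot was saturated in 1 of the 2 channels at 15 min, so that level is a minimum there. A bean UDP-glucosyltransferase-like probe (AK071136) fell by 4.49. Chlorophyll metabolism had 5 lower (50%, 4 late and 1 faded) and 0 higher of 10. Over all probes fitted, 6.41% were lower and 3.51% higher. The median of the chlorophyll list was -1.04. Its members include the soybean magnesium chelatase-like probe (AK067323), which puts magnesium into the pigment, at -1.59, and the barley protochlorophyllide oxidoreductase-like probes AK065236 at -2.16, saturated in 1 of its 2 channels at 15 min, and AK068143 at -1.41. Both of these enzymes make chlorophyll. The photosynthesis list had 1 lower (2.17%) and 0 higher of 46, with a median of -0.20 (all probes fitted, -0.01). Cytochrome P450 probes had 18 lower (16.5%) and 6 higher (5.5%) of 109. The barley nitrate reductase-like probe (AK102363), which starts nitrate assimilation, fell by 2.79 (limma adjusted p = 0.00248), with an early difference of 0.79 that puts it in no class. An aspartate kinase-homoserine dehydrogenase (AK068391), of amino acid synthesis, had 10.23 and 10.54 at 24 h, 14.12 and 13.46 at 15 min and 14.21 and 13.38 in constitutive plants, a fall of 3.41. A drought-induced S-like ribonuclease (AK061438) fell by 3.20. A peach RD22-like dehydration protein (AK105947) had a difference of -2.94, a call lost without the second 24 h array and with dye as a covariate. Of the 23 abscisic acid and dehydration probes, 2 (8.7%) were lower, 1 of them late, and 0 higher, a share lower near that over all probes. Phenylpropanoid and flavonoid genes had 10 lower (13.2%) and 2 higher (2.63%) of 76, with 6 late and lower. Transporters of sugars, amino acids and nitrate had 12 lower (10.9%) and 5 higher (4.55%) of 110. A sulfate transporter-like probe (AK067353) fell by 2.78, while rice OsMST1 (AK068280), a monosaccharide transporter, rose by 1.92 (limma adjusted p = 0.0003). Of 9 aquaporins, which conduct water, 3 (33.3%) were lower and 0 higher, but the calls of AK105524 and AK101598 were lost without either 24 h array.

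**Figure D3:**
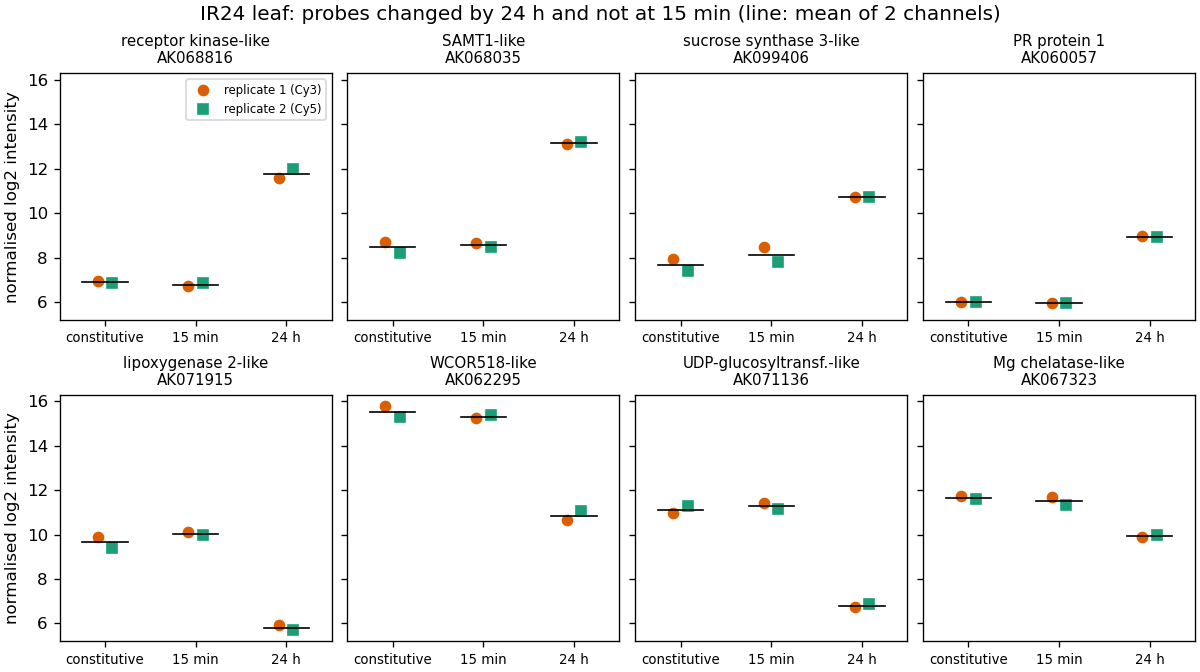
Normalised log2 intensity of 8 late probes in each IR24 channel, drawn as circles for replicate 1 and squares for replicate 2 with a line at the mean. The receptor kinase-like probe is at 11.56 and 11.98 at 24 h, and the lipoxygenase 2-like probe at 5.92 and 5.70, both outside their channels at 15 min and in constitutive plants.

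Fermentation genes were mixed. Of 32 fermentation probes, 3 (9.38%) were higher and 3 (9.38%) lower, against 3.51% and 6.41% over all probes fitted. At 15 min against constitutive plants 0 were called, against 2.09% over all probes fitted. Rice lactate dehydrogenase (AK103257) had 10.61 and 11.01 at 24 h against 9.79 and 9.66 at 15 min (difference 1.09 ± 0.19, limma adjusted p = 0.0069), a call lost without the second array of either time. An alcohol dehydrogenase-like probe (AK067720) rose by 1.46 ± 0.16 (limma adjusted p = 0.000556). The probes named ADH1 (AK069330 and AK073964), ADH2 (AK102799) and PDC2 (AK101594) were not called, with differences of -0.50, -0.07, -0.16 and -0.56 and limma adjusted p of 0.101 to 0.899. PDC1 (AK100678) was well above background in 0 of 2 channels at 24 h and 1 of 2 at 15 min, and was not called (limma adjusted p = 0.343). That does not show that they stayed level. Submergence induced protein 2 (AK103834), added to the fixed genes from its description, differed by 0.77 (limma adjusted p = 0.508), and the 2A probe (AK099497) by -0.42 (limma adjusted p = 0.205). Among ethylene genes, 4 of 26 (15.4%) were higher and 2 (7.69%) lower, the latter near the share over all probes. OsEIL1 (AK068429), a factor of ethylene signalling, rose by 1.38 ± 0.29 (limma adjusted p = 0.015). That call was lost without either 24 h array, without the second 15 min array, with dye as a covariate and in fits of IR24 alone. ACC oxidase ACO1 (AK065039) had -0.58 (limma adjusted p = 0.248). Another rice ACC oxidase probe (AK059964) was called lower, with -0.82 (limma adjusted p = 0.0138). Its call was lost under median centring and in each fit without a 24 h or 15 min array. GIGANTEA (AK072166), a clock gene, rose by 0.65 (limma adjusted p = 0.0365), a call lost in 10 of the alternatives, among them both fits without a 24 h array. The 3 fitted clock probes had a median of -0.54, with 1 called higher and 0 lower. At 24 h against constitutive plants, 1 of the 3 was called higher and 2 lower. Alternative oxidase AOX1a (AK064040) had -0.79 (limma adjusted p = 0.0317), a call lost under median centring and without either 24 h array, among others. OsGA2ox3 (AK063973), which inactivates gibberellin, rose by 2.01 (limma adjusted p = 0.000363).

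**Figure D4:**
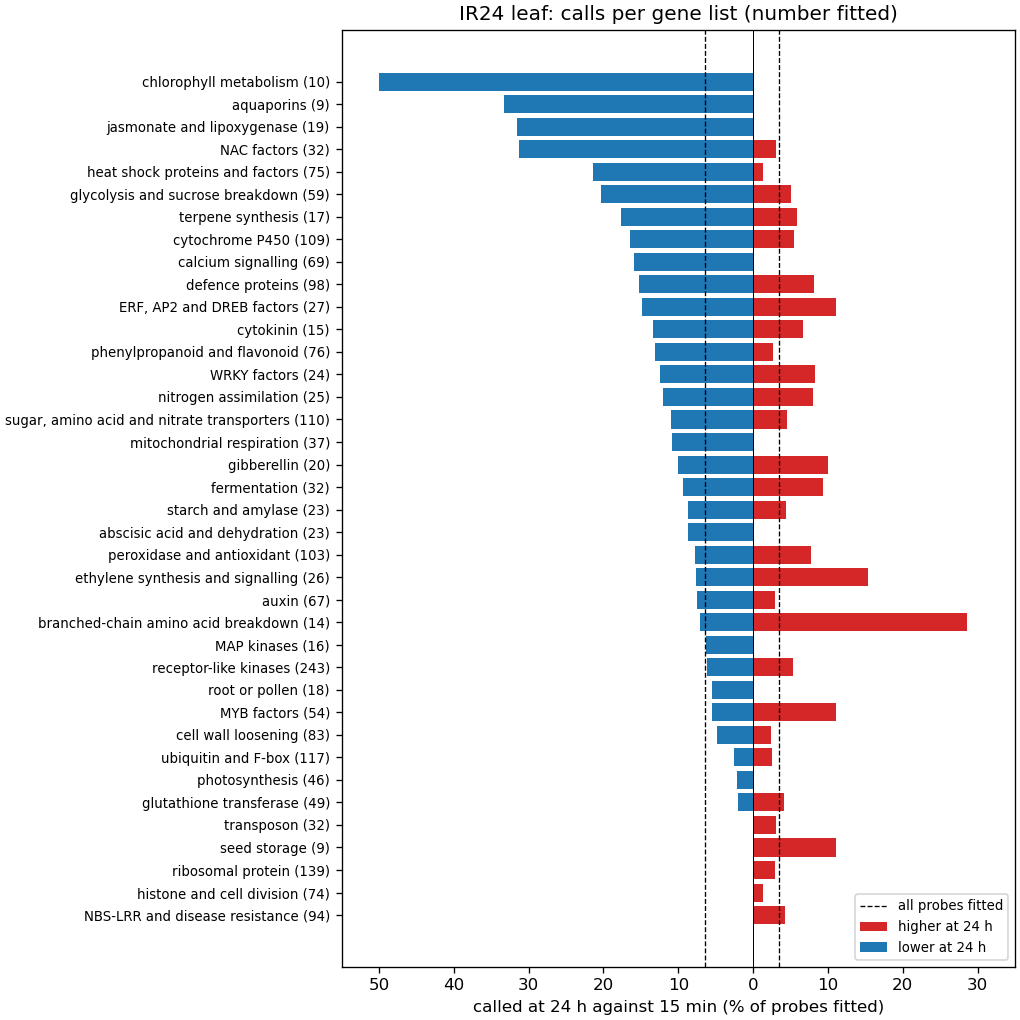
Share of fitted probes called in each gene list with at least 9 fitted probes, at 24 h against 15 min, with higher to the right, lower to the left and dashed lines at the share over all probes fitted (3.51% and 6.41%). Chlorophyll metabolism, aquaporins, jasmonate and NAC factors have the largest shares lower, and branched-chain amino acid breakdown the largest share higher.

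In FR13A, the tolerant genotype on the same arrays, 2083 probes (11.0%) were called at 24 h against 15 min, 754 higher (3.99%) and 1329 lower (7.03%). Both genotypes shared each array, so a fault of an array enters both. Of the 272 probes that faded in IR24, 237 were called the same way in FR13A, with an FR13A median of -1.37 at 24 h against 15 min. Of the 428 late higher probes 292, and of the 519 late lower probes 408, were called the same way in FR13A. The change of the FR13A over IR24 ratio between the times was called for 17 of 20289 probes (0.0838%), 6 toward FR13A and 11 toward IR24. All these calls were lost with scan day or replicate as a block, under median centring and in 5 of the 6 fits that left out 1 array.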

How the data were processed

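Leaf RNA was hybridised on 6 Agilent two-colour arrays, and the labels gave groups, replicates and dyes. Per the file headers, the deposited array files give spot and local background intensity for both dyes, a processed intensity, and log10 of Cy5 over Cy3. Scanner software was Agilent Feature Extraction 8.1, per the submitters' processing notes. In the authors' deposited series table, log10 ratios matched those of replicate 1 files (correlation 1) and mirrored those of replicate 2 files (correlation -1), so they run FR13A over IR24.

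Of 22575 spots, 21495 were gene probes. Normexp background correction (offset 50) was followed by loess and Aquantile normalisation in limma 3.58.1 (R 4.3.3). Spots marked as outliers were missing. Probes well above background on at least 2 arrays were kept (20315), and the separate-channel limma model used the 18907 with no missing channel, with 1 mean per genotype and time (intraspot correlation 0.499, 3.444 prior degrees of freedom). Tests were two-sided with Benjamini-Hochberg adjustment. The method was run on data simulated from the fitted model itself, without dye or scan day effects. That run checks the computation and lends no support to the calls. Where no channel of the dimmer group was well above background, the fold is given as "at least".

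Members, classes and 39 gene lists were chosen with earlier results of these data known. Named genes are the 12 described probes with the largest rise and the 12 with the largest fall among calls whose channels do not overlap, 8 per class, up to 4 per list, fixed genes, and 5 for the ratio change. The rule leaves out bare clones. Which descriptions count as bare (an Arabidopsis locus or clone number with no product) was settled after a first ranking had been seen. This set aside 3235 probes, 5 of which would have ranked among the 12 largest falls and 2 among the 12 largest rises. AK106404 had the largest fall of all, -5.18, and the others of the 5 falls were AK105331 (-4.98), AK064848 (-4.71), AK105323 (-4.61) and AK062882 (-4.41). The rises were AK109409 (3.73) and AK105552 (3.60). All 7 were called. None of the 21495 accessions (0) matched the RefSeq gene table, so no coordinates or sequences are given. Deviations of same-numbered channels correlated at -0.0327 (24 h and 15 min), 0.242 (24 h and constitutive) and -0.454 (15 min and constitutive), so replicate number was not used as a block in the main model. Same-numbered 24 h and 15 min arrays do share a scan day and the dye of IR24. Constitutive arrays do not share a scan day with their same-numbered arrays, and the part of scan day in these correlations was not tested. Alternatives changed the normalisation, filter, marked spots, dye, scan day, replicate block and the arrays used.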

Additional observations from a re-analysis of the deposited data

Results flagged for a closer look

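The change of the FR13A over IR24 ratio between 15 min and 24 h was itself tested, and 6 named probes passed. All 6 calls were lost with scan day or replicate as a block, under median centring and without some arrays. A rice PibH8 probe (AK065693) had -3.52, with IR24 at 11.51 and 11.50 at 24 h against 7.84 and 8.07 at 15 min, and FR13A at 6.20 and 6.64 against 6.19 and 6.59. A blast resistance gene-like probe (AK067087) had -2.16 and an F-box-like probe (AK068929) -1.79, both with the rise in IR24. The phosphoglycerate kinase-like probe (AK070705), an enzyme of glycolysis, had 3.31, with the rise in FR13A. The anthocyanidin reductase-like probe (AK072654) had -3.18 and an amino acid transporter-like probe (AK099094) -1.68, both with a fall in FR13A. A transposase-like probe (AK063411) rose by 0.69 in IR24 in both replicates and moved the opposite way in both replicates of FR13A, a difference whose own test did not pass (limma adjusted p = 0.159). The call of its rise in IR24 was lost in 10 alternatives, among them median centring, dye as a covariate and each fit without a 24 h or 15 min array. A sequence difference between genotypes at a probe also affects a ratio, and its part was not tested.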

How the results depend on the processing

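Of the 1874 probes called at 24 h against 15 min, 0 reversed direction under any alternative run. The 24 h and 15 min channels of all 1874 did not overlap, so leaving out 1 array could hardly reverse a direction. The other alternatives refit the same channels, so this 0 is no separate support. The count was 1127 under median centring, 1162 from IR24 channels alone with a replicate block and 709 to 1678 with 1 array left out (709 and 714 without a 24 h array); the replicate block on all channels gave 1880. The share higher was 47.0% without the first 15 min array and 25.4% without the second, against 35.4%. Early calls (396) were 262 under median centring, 174 with dye as a covariate, 193 with scan day as a block, 214 from IR24 alone with a replicate block and 102 to 496 with an array left out. Calls at 24 h against constitutive (1685) were 945 under median centring, 987 from IR24 alone with a replicate block and 583 to 1877 with an array left out. Faded probes (272) were 131 with dye, 141 with scan day, 163 from IR24 alone with a replicate block, 460 at unadjusted p under 0.01 and 87 to 350 with an array left out. Late probes (947) were 501 under median centring, 537 from IR24 alone with a replicate block and 334 to 845 with an array left out. Ratio changes (17; 1158 at unadjusted p under 0.05) were 0 under median centring, scan day and replicate blocks, 0 to 3 with an array left out and 29 from the authors' deposited log ratios, an alternative chosen after seeing the data. Of 147 named called probes, 59 lost their call without at least 1 array. The causes were not tested. Fits without an array took the intraspot correlation of the full fit. Same-numbered 15 min and 24 h arrays share a scan day and the dye of IR24, so the block also carries these, while each constitutive array was scanned on another day than its same-numbered arrays.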
